A study of Mus musculus with 32 samples.

Results

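The 10 genes described here encode enzymes that make serine and pass its carbon on to folate: the serine synthesis genes Phgdh, Psat1 and Psph, the serine hydroxymethyltransferase genes Shmt1 and Shmt2, and the folate genes Mthfd1, Mthfd1l, Mthfd2, Mthfd2l and Aldh1l2. They were chosen by name, with earlier results of these same libraries known, so their levels and their calls in every comparison below are a description and no independent evidence. All 10 were found among the 23284 genes of each of the 2 count tables. All 10 also passed the filter on low counts in both tables.

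Serine is made from a glycolytic intermediate in a short chain: Phgdh oxidizes 3-phosphoglycerate, Psat1 adds the amino group and Psph removes the phosphate. Shmt1 in the cytosol and Shmt2 in the mitochondrion then split serine into glycine and a folate-bound carbon unit. In the mitochondrion Mthfd2, its relative Mthfd2l and Mthfd1l turn that unit into formate, which Mthfd1 takes up in the cytosol for purine and thymidylate synthesis, while Aldh1l2 oxidizes it and yields NADPH. In many mammalian cells several of these genes are targets of ATF4, the transcription factor of the amino acid stress response.

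RNA of mouse tissue and cells was sequenced in 32 libraries. The cultures came from primary smooth muscle cells of the aorta, C57BL/6, with 1 line for each genotype: Oct4 -/- (KO) or wild type (WT). Each line was given the oxidized phospholipid POVPC or vehicle, in hypoxia (1% oxygen) or normoxia, with 3 libraries in each of the 8 groups. The lesion libraries came from the brachiocephalic arteries of 4 KO and 4 WT animals, C57BL/6, after 18 weeks on a Western diet. The labels give no dose or time for POVPC or hypoxia, no age, and no word on how or in which cells Oct4 was deleted. Since each genotype was 1 line in culture, genotype and line cannot be told apart there, and p-values measure only the spread between triplicates, which may be technical.

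Levels are CPM, edgeR's measure of a gene's share of its library's counts after scaling by TMM factors, and changes are log2 fold changes ± SE. A gene is said to have risen or fallen where edgeR's quasi-likelihood test gave a Benjamini-Hochberg false discovery rate (FDR) under 0.05 over all 14496 genes tested in culture or 14993 in lesions. Libraries held 8063121 to 30231799 counts in culture and 6526099 to 11137414 in lesions. The transcript Rpph1 took up to 14.2% of those counts in culture (KO vehicle hypoxia 3), and its part in the results was not tested. Alignments of reads that matched several places numbered 0.743 to 9.24 for each assigned alignment in culture, with the highest values in hypoxia libraries. In lesions such alignments numbered 0.825 to 1.04, and their part in the results was not tested. The lowest count of any of the 10 genes was 57 in culture (Shmt1, WT POVPC hypoxia 2) and 46 in lesions (Phgdh, lesion KO 4). Pou5f1, which encodes Oct4, had at most 3 counts in any library, so it could not check the genotype labels. Markers that define smooth muscle were present in every culture group, but low: their 8 genes summed to 44.3 to 183.0 CPM in KO libraries and 40.3 to 403 CPM in WT libraries, against 4185 to 9057 CPM in lesions. The 6 fibroblast markers summed to 199 to 887 CPM in hypoxia and 3326 to 4682 CPM in normoxia.

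By the file's mm9 annotation the genes lie on 7 chromosomes: Phgdh at chr3:98117094-98143892 (minus), Psat1 at chr19:15979613-15999549 (minus), Psph at chr5:130271434-130293129 (minus), Shmt1 at chr11:60602399-60624767 (minus), Shmt2 at chr10:126954179-126959500 (minus), Mthfd1 at chr12:77356219-77420807 (plus), Mthfd1l at chr10:6179460-6373466 (minus), Mthfd2 at chr6:83255698-83267598 (minus), Mthfd2l at chr5:91360222-91450395 (plus), and Aldh1l2 at chr10:82950192-82996885 (minus). Shmt2 shares 32 of its 2305 exonic bases with Ndufa4l2 on the opposite strand, and counting took no account of strand. Ndufa4l2 itself was at most 2.37 CPM in culture and 4.09 to 8.44 CPM in lesions, against 25.9 to 117 CPM for Shmt2 in culture.

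Promoters were read from RefSeq for build GRCm38.p6, as windows from 250 bases before to 50 after a start site. Of the 10 genes 9 matched, with 10 windows, 2 of them for Psat1, and Aldh1l2 did not. On both strands 3 motifs were searched: TGATGNAA (the C/EBP-ATF composite core), CACGTG (an E-box) and ACGTG (a form of the hypoxia response element's core). ACGTG was chosen after values had been seen, and it was also matched within any CACGTG. The core's other form, GCGTG, was not searched, so a window without ACGTG may still hold the core. TGATGNAA was in 0 of the 10 windows and in 3.97% of 32851 RefSeq promoters, and CACGTG was in 0 of the 10 and in 7.15%. ACGTG was in 3 of the 10 windows, against 19.6% of all promoters. The windows of Mthfd1l and Mthfd2 are shown because these genes had the largest rises in hypoxia in WT cells, and those of Psph and Psat1 (second start) because they hold the motif. Capitals mark ACGTG or, for a match on the other strand, its reverse complement CACGT. The Mthfd1l window is on the plus strand of this build, whereas the mm9 annotation lists the gene on the minus strand.
Mthfd1l (chr10:3972825-3973124, plus strand): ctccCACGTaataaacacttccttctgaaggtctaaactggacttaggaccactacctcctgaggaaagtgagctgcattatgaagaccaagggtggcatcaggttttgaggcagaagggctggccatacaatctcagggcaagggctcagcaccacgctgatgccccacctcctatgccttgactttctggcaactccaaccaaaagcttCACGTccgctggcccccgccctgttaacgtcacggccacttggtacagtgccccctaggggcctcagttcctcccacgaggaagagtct
Mthfd2 (chr6:83317555-83317854, minus strand): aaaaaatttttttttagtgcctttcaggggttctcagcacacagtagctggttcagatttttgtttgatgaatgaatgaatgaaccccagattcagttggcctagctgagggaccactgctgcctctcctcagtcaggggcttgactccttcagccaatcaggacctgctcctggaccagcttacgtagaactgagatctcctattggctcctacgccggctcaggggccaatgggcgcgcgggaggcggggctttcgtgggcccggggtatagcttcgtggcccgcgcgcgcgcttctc
Psph (chr5:129787204-129787503, minus strand): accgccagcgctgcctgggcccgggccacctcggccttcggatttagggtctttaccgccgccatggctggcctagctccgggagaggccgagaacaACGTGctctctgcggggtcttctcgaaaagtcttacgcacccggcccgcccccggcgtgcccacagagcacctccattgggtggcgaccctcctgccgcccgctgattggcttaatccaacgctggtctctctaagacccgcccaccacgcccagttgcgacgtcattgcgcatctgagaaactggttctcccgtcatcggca
Psat1 (chr19:15924573-15924872, minus strand): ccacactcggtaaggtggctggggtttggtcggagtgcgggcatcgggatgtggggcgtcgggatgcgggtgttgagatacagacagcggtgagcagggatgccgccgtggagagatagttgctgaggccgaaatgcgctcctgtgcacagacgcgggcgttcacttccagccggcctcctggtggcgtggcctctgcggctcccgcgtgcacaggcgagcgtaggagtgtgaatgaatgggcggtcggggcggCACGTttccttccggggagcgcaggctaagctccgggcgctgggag
Mthfd1l held the motif at positions 5 to 9 and 212 to 216 of its window, counted from 1 at the 5′ end, Psph at 98 to 102 and Psat1 at 255 to 259, past the start site. The Mthfd2 window held none of the 3 motifs. A match or its absence describes only these letters.

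In hypoxia nearly all of the 10 genes were higher than in normoxia, in both lines and with either treatment. Of the 10, 9 rose in KO cells given POVPC, 8 in WT cells given POVPC, 9 in KO cells given vehicle and 9 in WT cells given vehicle. Over all genes tested, 34.5, 31.8, 32.6 and 32.8% rose in these comparisons, in the same order. Mthfd2l alone fell, in KO cells given POVPC and in WT cells given vehicle, so the counts of genes that fell were 1, 0, 0 and 1 of 10, beside 33.9, 34.3, 32.8 and 35.3% of all genes. The median change of the 10 was 0.98, 1.59, 0.83 and 1.61, in the same order, and that of all genes lay between -0.032 and 0.026. The 4 comparisons use separate libraries. The summed fibroblast and smooth muscle markers were lower in hypoxia in each line and treatment, with the fibroblast marker Lum at 0 in both WT hypoxia groups, and their part in the result was not tested.

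**Figure D1:**
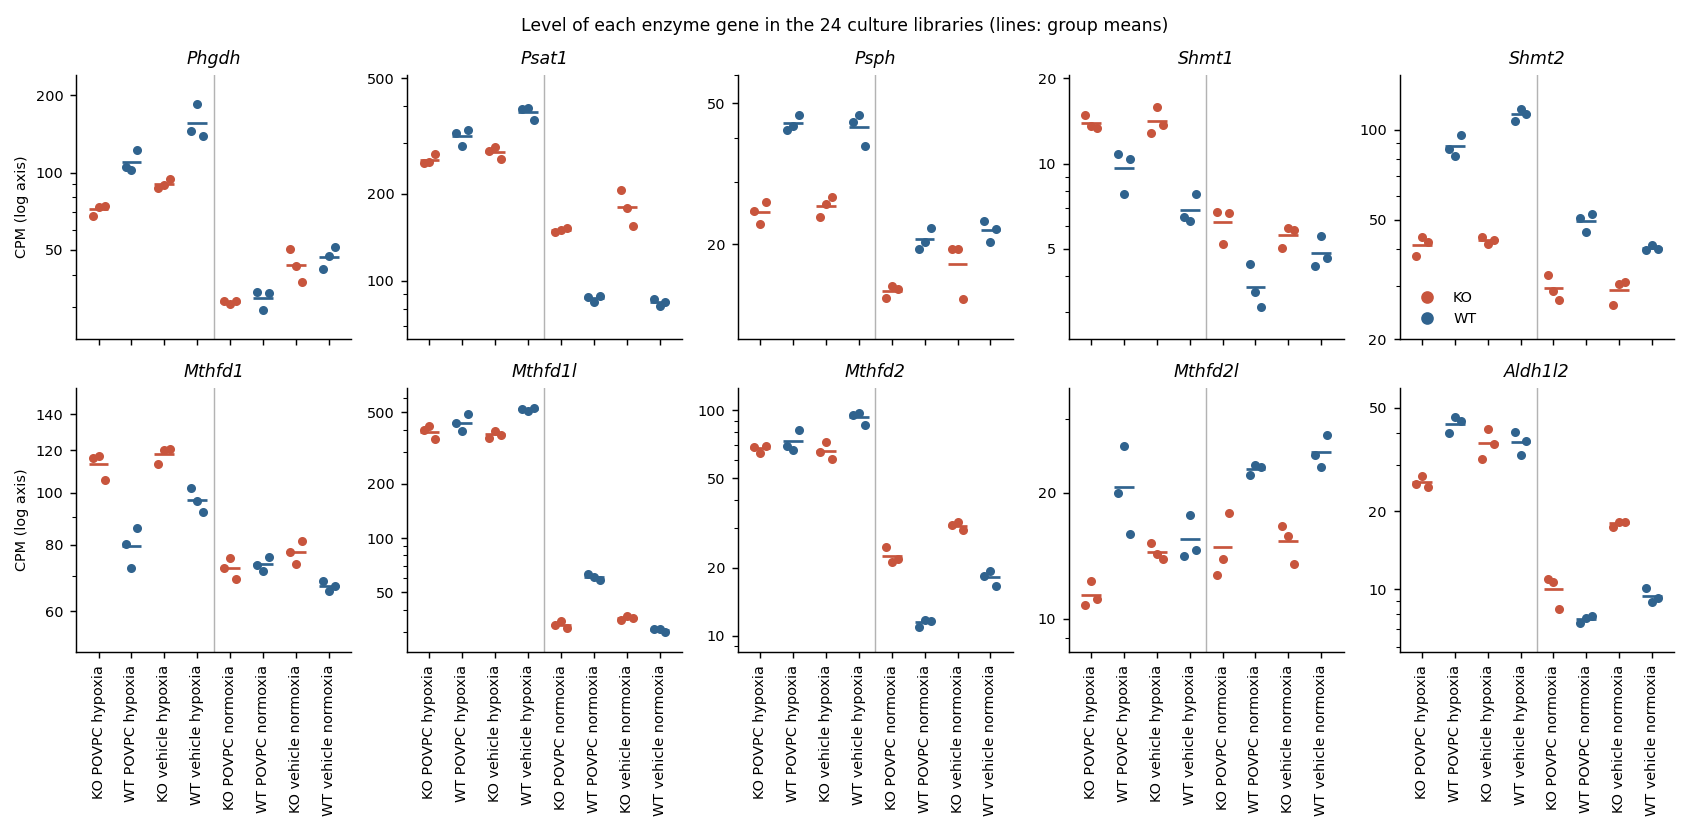
Level of each gene in CPM (log axis) in the 24 culture libraries, by group (points: libraries; lines: group means; red: KO; blue: WT; left of the grey line: hypoxia; right: normoxia). Mthfd1l lies at 352 to 526 CPM in hypoxia and 30.2 to 63.0 CPM in normoxia, while Mthfd2l has its highest level, 27.4 CPM, in normoxia.

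Of the serine synthesis genes, Phgdh and Psat1 gained most. Phgdh, the first enzyme of the chain, had 87.1, 89.7 and 94.1 CPM in KO cells in hypoxia with vehicle, against 50.3, 43.3 and 37.3 CPM in KO cells in normoxia. In WT cells it had 146, 185 and 139 CPM in hypoxia and 41.9, 47.2 and 51.3 CPM in normoxia. Every hypoxia library was above every normoxia library of its line, and the changes were 1.05 ± 0.11 in KO and 1.74 ± 0.11 in WT cells. With POVPC they were 1.20 ± 0.11 and 1.76 ± 0.11.

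Psat1, the aminotransferase, had 280.0, 290.2 and 264 CPM in KO cells in hypoxia and 205, 179 and 155 CPM in KO cells in normoxia, both with vehicle. WT cells had 392, 396 and 358 CPM in hypoxia, against 86.8, 81.7 and 84.6 CPM in normoxia. The KO line was thus below the WT line in hypoxia and above it in normoxia, with no overlap in either. The change was 0.63 ± 0.078 (a ratio of 1.55) in KO cells and 2.18 ± 0.081 (4.53) in WT cells. Given POVPC, it was 0.81 ± 0.078 in KO and 1.86 ± 0.080 in WT cells. Psph, the phosphatase that completes the chain, moved less: 0.54 ± 0.11 in KO and 0.97 ± 0.10 in WT cells with vehicle, and 0.74 ± 0.11 and 1.09 ± 0.11 with POVPC. Its group means in hypoxia with vehicle were 25.7 ± 1.69 CPM in KO and 42.8 ± 4.32 CPM in WT cells (SD, n = 3 each).

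The hydroxymethyltransferases differed between the lines. Shmt2, the mitochondrial enzyme, had 43.7, 41.6 and 42.7 CPM in KO cells in hypoxia with vehicle, against 25.9, 30.4 and 31 CPM in normoxia. In WT cells it had 107, 117 and 113 CPM in hypoxia and 39.7, 41.1 and 39.8 CPM in normoxia. The KO libraries in hypoxia were thus near the WT libraries in normoxia. The change was 0.55 ± 0.087 in KO and 1.48 ± 0.084 in WT cells, and 0.48 ± 0.085 and 0.84 ± 0.084 with POVPC. Shmt1, the cytosolic enzyme, was low: 12.8, 15.9 and 13.7 CPM in KO cells in hypoxia with vehicle and 5.02, 5.91 and 5.81 CPM in normoxia. WT cells had 6.48, 6.26 and 7.82 CPM in hypoxia, against 4.35, 5.53 and 4.66 CPM in normoxia. Shmt1 rose by 1.34 ± 0.15 in KO and 0.50 ± 0.16 in WT cells, the opposite order to Shmt2, and by 1.16 ± 0.15 and 1.41 ± 0.17 with POVPC. Scaled by library size alone, the WT change with vehicle missed the threshold (0.33, FDR 0.0999).

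**Figure D2:**
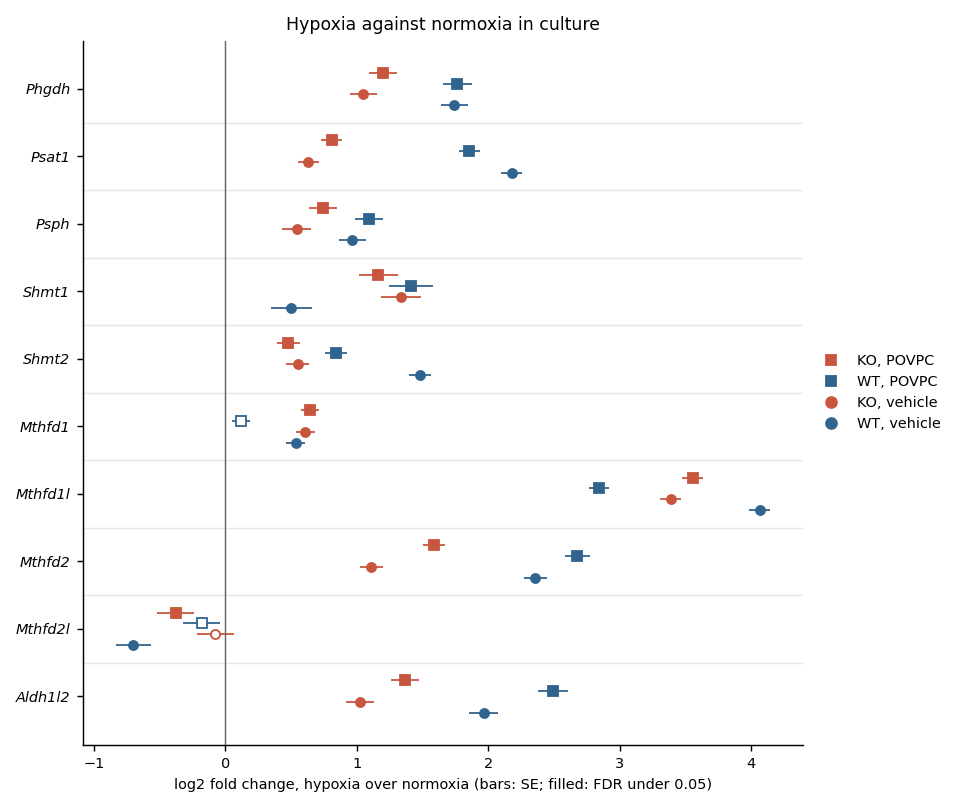
Log2 fold change of hypoxia over normoxia for each gene in 4 settings (points: edgeR estimates; bars: SE; filled: FDR under 0.05; open: not; red: KO; blue: WT; squares: POVPC; circles: vehicle). Mthfd1l lies between 2.84 and 4.06, and Mthfd2l lies at or below 0. Phgdh, Psat1, Psph, Shmt2, Mthfd2 and Aldh1l2 lie lower in KO than in WT with either treatment.

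Mthfd1l, the mitochondrial ligase that releases formate, had the largest change of the 10 in each of the 4 settings. It had 361, 392 and 374 CPM in KO cells in hypoxia with vehicle and 34.9, 36.7 and 35.8 CPM in normoxia. In WT cells it had 521, 508 and 526 CPM in hypoxia, against 31.5, 31.4 and 30.2 CPM in normoxia. In each line every hypoxia library lay far above every normoxia library. The ratio of hypoxia to normoxia was 10.5 in KO cells (3.39 ± 0.080 on the log2 scale) and 16.7 in WT cells (4.06 ± 0.082). By size of the rise it ranked 211 in KO and 201 in WT cells among 14496 genes. With POVPC KO cells had 397, 417 and 352 CPM in hypoxia, against 32.9, 34.7 and 31.5 CPM in normoxia (3.56 ± 0.081). WT cells with POVPC had 432, 391 and 486 CPM in hypoxia, against 63, 61.1 and 58.6 CPM in normoxia (2.84 ± 0.078), so that their normoxia level stood above those of the other 3 normoxia groups. Mthfd1, its cytosolic counterpart and the higher of the pair per kilobase in normoxia, rose by 0.61 ± 0.069 in KO and 0.53 ± 0.069 in WT cells with vehicle. With POVPC it rose by 0.64 ± 0.069 in KO cells and was at 0.12 ± 0.070 in WT cells (FDR 0.134), which became a call without WT POVPC hypoxia 2 (0.20, FDR 0.0151).

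Mthfd2, the mitochondrial dehydrogenase and cyclohydrolase, had 65.5, 72.4 and 61 CPM in KO cells in hypoxia with vehicle, against 31, 31.9 and 29.5 CPM in normoxia. WT cells had 95.6, 97.1 and 86.4 CPM in hypoxia and 18.4, 19.4 and 16.6 CPM in normoxia. As with Psat1, the KO line was lower than the WT line in hypoxia and higher in normoxia, without overlap. Mthfd2 rose by 1.11 ± 0.087 in KO and 2.36 ± 0.089 in WT cells, and by 1.59 ± 0.087 and 2.68 ± 0.094 with POVPC. Aldh1l2, the mitochondrial formyltetrahydrofolate dehydrogenase, had 31.8, 41.3 and 36.4 CPM in KO cells in hypoxia with vehicle, against 17.4, 18.2 and 18.2 CPM in normoxia. In WT cells it had 40.2, 32.9 and 37.2 CPM in hypoxia and 10.1, 8.93 and 9.29 CPM in normoxia. The lines overlapped in hypoxia and not in normoxia, where KO was higher. Aldh1l2 rose by 1.02 ± 0.11 in KO and 1.96 ± 0.11 in WT cells, and by 1.36 ± 0.11 and 2.49 ± 0.11 with POVPC.

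Mthfd2l, the relative of Mthfd2, was the exception. It had 15.2, 14.3 and 13.9 CPM in KO cells in hypoxia with vehicle and 16.7, 15.8 and 13.5 CPM in normoxia, with overlap. WT cells had 14.1, 17.7 and 14.6 CPM in hypoxia, against 24.6, 23 and 27.4 CPM in normoxia, without overlap. It fell by 0.70 ± 0.14 on the log2 scale in WT cells with vehicle and by 0.38 ± 0.14 in KO cells with POVPC. It was at -0.077 ± 0.14 in KO cells with vehicle (FDR 0.65) and at -0.18 ± 0.14 in WT cells with POVPC (FDR 0.255). The call in KO cells with POVPC was lost without any 1 of KO POVPC hypoxia 1, KO POVPC hypoxia 3 or KO POVPC normoxia 3 (-0.37 to -0.23, FDR 0.0507 to 0.179), and WT cells with POVPC gained one without WT POVPC hypoxia 2 (-0.33, FDR 0.0452).

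Levels of different genes were compared per kilobase of exon, as group means ± SD over 3 libraries. In hypoxia with vehicle Psat1 was the highest of the 10, at 112 ± 5.38 CPM per kilobase in KO and 153 ± 8.49 in WT cells. Mthfd1l came next, at 86.6 ± 3.59 in KO and 119.7 ± 2.19 in WT cells, and Phgdh after it, at 48.3 ± 1.89 and 83.7 ± 13.5. Shmt2 followed in WT cells (48.8 ± 2.28). In normoxia Psat1 was again the highest, at 72.1 ± 10.2 in KO and 33.9 ± 1.02 in WT cells, but Mthfd1l was among the lower ones, at 8.27 ± 0.21 and 7.16 ± 0.17. Phgdh and Mthfd1 overlapped in KO normoxia libraries, at 23.3 ± 3.47 and 23.3 ± 1.17. Shmt1 and Aldh1l2 were the lowest pair in both normoxia groups with vehicle, at 2.70 ± 0.24 and 2.98 ± 0.075 in KO and 2.35 ± 0.3 and 1.56 ± 0.097 in WT cells.

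Within a library, the ratio of reads per kilobase between paralogues does not depend on scaling. Mthfd1l over Mthfd1 was 2.44 ± 0.064 in KO cells in hypoxia with vehicle and 0.356 ± 0.024 in normoxia (mean ± SD, n = 3 each). In WT cells it was 4.12 ± 0.244 in hypoxia and 0.356 ± 0.011 in normoxia. The mitochondrial gene was therefore the higher of the pair in every hypoxia library and the lower in every normoxia library. Mthfd2 over Mthfd2l was 4.98 ± 0.442 in KO cells in hypoxia, against 2.19 ± 0.177 in normoxia, and 6.58 ± 0.703 in WT cells in hypoxia, against 0.794 ± 0.129 in normoxia. In normoxia Mthfd2 was the higher of the pair in every KO library and the lower in every WT library. With vehicle Shmt2 over Shmt1 ran in opposite directions in the lines: 2.74 ± 0.358 in KO cells in hypoxia, against 4.67 ± 0.096 in normoxia, and 14.8 ± 1.93 in WT cells in hypoxia, against 7.49 ± 0.761 in normoxia. With POVPC it was lower in hypoxia in both: 2.67 ± 0.333 in KO cells in hypoxia, against 4.31 ± 0.679 in normoxia, and 8.30 ± 1.13 in WT cells in hypoxia, against 12.3 ± 2.44 in normoxia. These ratios were not tested.

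**Figure D3:**
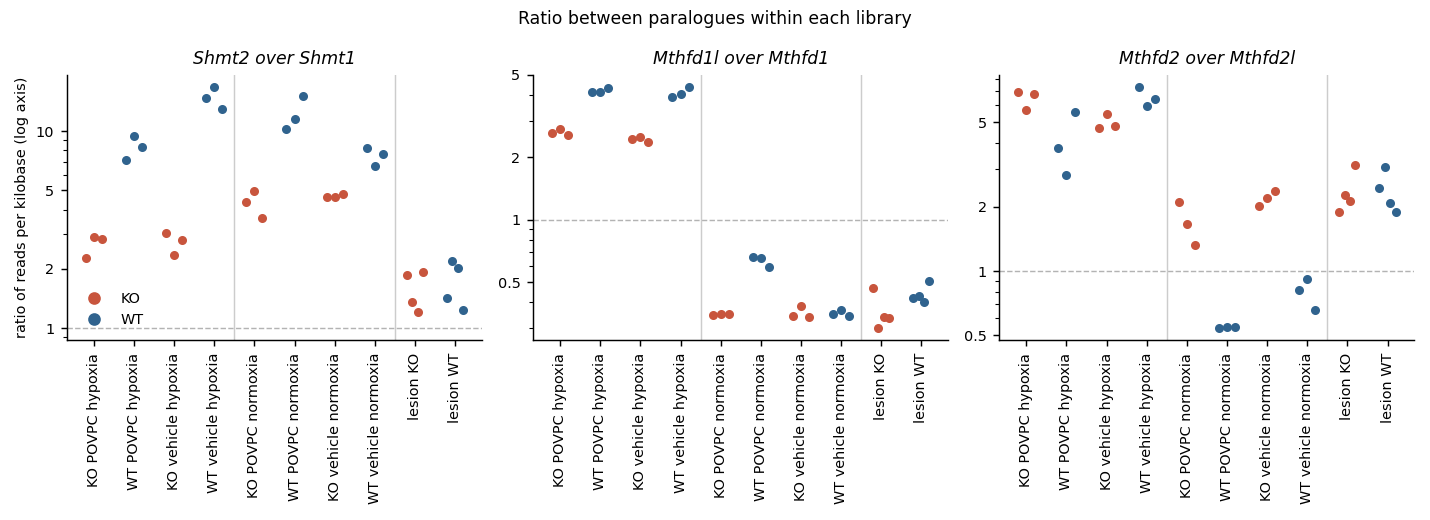
Ratio of reads per kilobase between 3 pairs of paralogues within each library (log axes; points: libraries; red: KO; blue: WT; grey lines part hypoxia, normoxia and lesions; dashed line: ratio 1). Mthfd1l over Mthfd1 is 2.37 to 4.39 in hypoxia, 0.339 to 0.660 in normoxia and 0.300 to 0.506 in lesions.

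The response to hypoxia was tested for a difference between the lines, as KO minus WT. With vehicle, 2 of the 10 genes were called higher and 7 lower, beside 19.2 and 19.9% of all genes. The 7 were Psat1 (-1.55 ± 0.11), Mthfd2 (-1.25 ± 0.12), Aldh1l2 (-0.94 ± 0.15), Shmt2 (-0.93 ± 0.12), Phgdh (-0.69 ± 0.15), Mthfd1l (-0.67 ± 0.10) and Psph (-0.42 ± 0.15). For each of them KO cells also rose, but by less. Shmt1 went the other way (0.83 ± 0.22), rising more in KO cells, and so did Mthfd2l (0.62 ± 0.20), which fell in WT cells and was not called in KO cells. Mthfd1 was at 0.076 ± 0.098 (FDR 0.575). The Psph call was lost without any 1 of KO vehicle hypoxia 1, KO vehicle normoxia 1, KO vehicle normoxia 2, WT vehicle hypoxia 1, WT vehicle hypoxia 2 or WT vehicle normoxia 2 (-0.41 to -0.35, FDR 0.0526 to 0.0907). It was also lost with scaling by library size alone (-0.32, FDR 0.132) and with its groups fitted alone (-0.45, FDR 0.0516).

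With POVPC the difference in the hypoxia response was called higher for 2 and lower for 5 genes, beside 15.7 and 14.4% of all genes. Lower were Aldh1l2 (-1.13 ± 0.16), Mthfd2 (-1.09 ± 0.13), Psat1 (-1.05 ± 0.11), Phgdh (-0.56 ± 0.15) and Shmt2 (-0.36 ± 0.12), and all 5 were lower with vehicle too. Mthfd1l was called in opposite directions, at 0.71 ± 0.10 with POVPC and -0.67 ± 0.10 with vehicle. Mthfd1 was higher (0.52 ± 0.098), beside its lack of a call in WT cells with POVPC. The call on Shmt2 was lost without any 1 of KO POVPC normoxia 1, WT POVPC hypoxia 3 or WT POVPC normoxia 2 (-0.30 to -0.28, FDR 0.0749 to 0.0931). Scaled by library size alone, this call was lost as well (-0.34, FDR 0.099). WT POVPC hypoxia libraries 1 and 2 were among the 3 shallowest, and without these 3 every call on the 10 genes here kept its side of the threshold.

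KO and WT cells were compared directly in each condition, with the same libraries as above. In hypoxia the KO line was lower for most of the 10 genes. With POVPC 2 were higher and 7 lower, beside 30 and 27.6% of all genes. With vehicle 2 were higher and 6 lower, beside 29.5 and 30.4%. The largest difference was that of Shmt2, at -1.10 ± 0.085 with POVPC and -1.40 ± 0.085 with vehicle, and KO libraries had 38.0 to 43.7 CPM, against 81.8 to 117 CPM in WT libraries. Phgdh (-0.62 ± 0.10 and -0.79 ± 0.10) and Psph (-0.83 ± 0.11 and -0.74 ± 0.11) were lower too, as was Psat1 (-0.27 ± 0.077 and -0.46 ± 0.077). Mthfd1l was called lower at -0.47 ± 0.072 with vehicle, and at -0.17 ± 0.072 with POVPC (FDR 0.0489), a call that was lost without any 1 of KO POVPC hypoxia 3, WT POVPC hypoxia 1 or WT POVPC hypoxia 3 (-0.17 to -0.080, FDR 0.0789 to 0.37). Mthfd2 fell in KO with vehicle (-0.48 ± 0.084), whereas Aldh1l2 and Mthfd2l fell with POVPC (-0.75 ± 0.11 and -0.82 ± 0.14). With POVPC Mthfd2 was at -0.11 without a call. It was at -0.31 without the 3 shallowest culture libraries, which leaves 1 library in the WT POVPC group. Shmt1 and Mthfd1 were called higher in KO: Shmt1 at 0.50 ± 0.15 with POVPC and 1.04 ± 0.15 with vehicle, and Mthfd1 at 0.50 ± 0.070 and 0.29 ± 0.069. The Shmt1 call with POVPC was lost without WT POVPC hypoxia 2 (0.37, FDR 0.0537), and its value was 0.40 without the 3 shallowest libraries. Scaled by library size alone, the calls with POVPC on Psat1 and Mthfd1l were lost (FDR 0.099 and 0.406). The Mthfd1l call was also lost with a replicate block, without robust estimation, without a filter on low counts and with its groups fitted alone (FDR 0.0544 to 0.0665). The lines also differed in markers in hypoxia. Of 6 fibroblast markers 6 were higher in KO with POVPC and 5 with vehicle (medians 2.34 and 2.76), with sums of 637 to 887 CPM in KO and 199 to 575 CPM in WT libraries. Of 12 proliferation genes 2 were higher and 7 lower in KO with POVPC, and 1 was higher and 10 lower with vehicle (medians -0.74 and -1.29). Their part in the result was not tested.

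In normoxia the lines differed in both directions. With POVPC 4 genes were higher and 4 lower in KO, beside 29.5 and 30.7% of all genes, and with vehicle 5 were higher and 3 lower, beside 29.8 and 30.8%. Psat1 (0.78 ± 0.078 with POVPC and 1.09 ± 0.078 with vehicle), Mthfd2 (0.98 ± 0.092 and 0.76 ± 0.089) and Aldh1l2 (0.38 ± 0.12 and 0.93 ± 0.11) were higher in KO with either treatment. Shmt2 (-0.74 ± 0.085 and -0.46 ± 0.085), Mthfd2l (-0.62 ± 0.14 and -0.71 ± 0.14) and Psph (-0.49 ± 0.11 and -0.32 ± 0.11) were lower. Shmt1 was higher with POVPC (0.75 ± 0.16) and at 0.20 ± 0.16 with vehicle (FDR 0.276). Mthfd1l was lower with POVPC (-0.88 ± 0.075) and slightly higher with vehicle (0.21 ± 0.075). Mthfd1 was also slightly higher with vehicle (0.21 ± 0.069). Phgdh was at -0.053 ± 0.11 and -0.10 ± 0.11 (FDR 0.69 and 0.415). With vehicle, the call on Psph was lost without KO vehicle normoxia 3 (-0.17, FDR 0.161) or WT vehicle normoxia 1 (-0.27, FDR 0.0595), that on Mthfd1 without KO vehicle normoxia 3 (0.17, FDR 0.0536), and that on Mthfd1l without KO vehicle normoxia 2 (0.19, FDR 0.0603) or WT vehicle normoxia 3 (0.19, FDR 0.0645). Scaled by library size alone, the calls on Mthfd1 and Mthfd1l with vehicle were lost as well (FDR 0.561 and 0.609). In normoxia 4 fibroblast markers were higher and 1 lower in KO with POVPC, and 4 higher and 2 lower with vehicle. The sums of these markers were lower in KO with POVPC (3326 to 3575 CPM, against 3779 to 4104 CPM in WT libraries). With vehicle the sums were lower in KO too (3387 to 4035 CPM, against 4635 to 4682 CPM in WT libraries). Of 7 smooth muscle markers tested 3 were lower and 0 higher with POVPC, and 6 lower and 1 higher with vehicle. Proliferation genes were lower in 9 of 12 and higher in 0 with POVPC, but higher in 8 and lower in 1 with vehicle. Their part in the result was not tested.

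**Figure D4:**
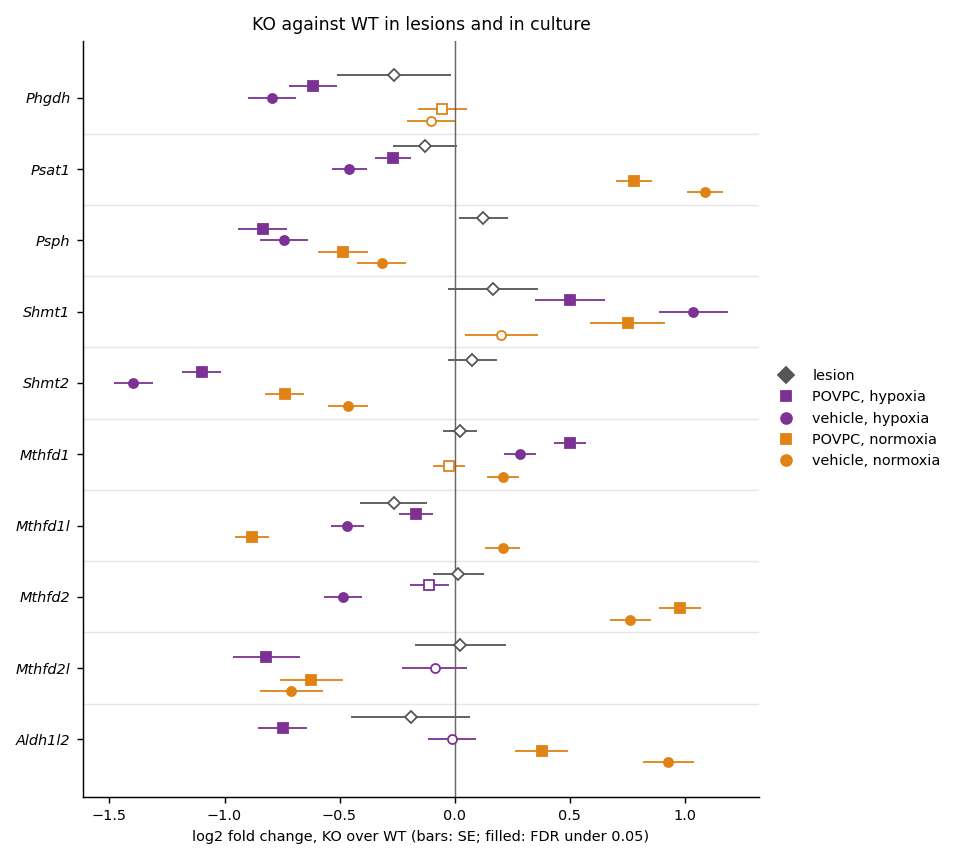
Log2 fold change of KO over WT for each gene in lesions and in the 4 culture conditions (points: edgeR estimates; bars: SE; filled: FDR under 0.05; open: not). Psat1, Mthfd2 and Aldh1l2 lie above 0 in normoxia (orange), all Shmt2 points in culture lie below 0, and the open lesion points lie between -0.26 and 0.17.

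POVPC, an oxidation product of phosphatidylcholine found in lesions, was followed by fewer called changes than hypoxia was. In WT cells in normoxia 2 of 10 rose and 2 fell with POVPC, beside 13.1 and 13.8% of all genes. Mthfd1l had 63, 61.1 and 58.6 CPM with POVPC, against 31.5, 31.4 and 30.2 CPM with vehicle. The libraries did not overlap, and the change was 0.97 ± 0.075, rank 777 from the top among 14496 genes. Shmt2 rose as well (0.30 ± 0.084), a call lost without WT POVPC normoxia 3 (0.26, FDR 0.0513) and with scaling by library size alone (FDR 0.225). Mthfd2 had 11, 11.8 and 11.6 CPM with POVPC, against 18.4, 19.4 and 16.6 CPM with vehicle (-0.66 ± 0.093), and Phgdh fell by 0.53 ± 0.11 on the log2 scale. These libraries also differed in composition: the ribosomal transcript Rn45s took 3.23 to 11.1% of counts with POVPC and 1.31 to 1.5% with vehicle. All 12 proliferation genes were higher with POVPC (median 1.29), and of 7 smooth muscle markers tested 6 were lower and 1 higher (median -1.52), with sums of 177 to 216 CPM with POVPC and 348 to 403 CPM with vehicle. The part of these in the result was not tested.

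In WT cells in hypoxia 1 of 10 rose with POVPC and 6 fell, beside 8.22 and 12.7% of all genes. Shmt1 rose (0.51 ± 0.16), and Phgdh (-0.50 ± 0.10), Mthfd2 (-0.35 ± 0.084), Shmt2 (-0.35 ± 0.083), Mthfd1 (-0.28 ± 0.070), Psat1 (-0.28 ± 0.077) and Mthfd1l (-0.25 ± 0.072) fell. Phgdh had 105, 102 and 123 CPM with POVPC, against 146, 185 and 139 CPM with vehicle. All 7 calls were lost without the 3 shallowest culture libraries, 2 of which were in the POVPC group, which then holds 1 library, assumed to vary like the other groups. Of single libraries, the call on Shmt1 was lost without any 1 of WT POVPC hypoxia 1, WT POVPC hypoxia 3, WT vehicle hypoxia 1 or WT vehicle hypoxia 2 (0.44 to 0.47, FDR 0.0641 to 0.0932), and those on Psat1 and Mthfd1l without WT POVPC hypoxia 2 (-0.22, FDR 0.0829) and without WT POVPC hypoxia 2 (-0.17, FDR 0.118). WT POVPC hypoxia 2 also held the B cell markers Cd79a and Ms4a1 at 7.51 and 6.56 CPM, whereas the other 2 libraries of its group held each of them at 0.59 CPM or less. Of the 12 proliferation genes 7 were lower with POVPC and 0 higher (median -0.64). The part of these in the result was not tested.

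Fewer of the genes passed the test with POVPC in KO cells. In normoxia 0 of 10 genes rose and 2 fell, beside 0.0069 and 0.0345% of all genes, which is 1 and 5 genes. Aldh1l2 had 11, 10.6 and 8.36 CPM with POVPC and 17.4, 18.2 and 18.2 CPM with vehicle, without overlap (-0.84 ± 0.11, FDR 0.000346 by edgeR). Mthfd2 had 24.6, 21.2 and 21.8 CPM with POVPC and 31, 31.9 and 29.5 CPM with vehicle (-0.45 ± 0.088, FDR 0.0498). The Mthfd2 call was lost without any 1 of KO POVPC normoxia 1, KO POVPC normoxia 2, KO POVPC normoxia 3, KO vehicle normoxia 1 or KO vehicle normoxia 2 (-0.52 to -0.41, FDR 0.0679 to 0.442), while both calls were lost when these groups were fitted alone. In KO vehicle normoxia 3 Rn45s took 8.02% of counts, against 1.29 and 1.59% in the other 2. Rpph1 took 1.15% of counts there, against 6.91 and 4.23% in KO vehicle normoxia 1 and 2. Without KO vehicle normoxia 3 edgeR called 5 of the 10 genes and 310 in all. The added ones were Phgdh (-0.58, FDR 0.0101), Psat1 (-0.36, FDR 0.0248) and Psph (-0.40, FDR 0.0467), all lower. In hypoxia 0 of 10 rose and 1 fell with POVPC, beside 1.97 and 2.09% of all genes: Aldh1l2 had 25.4, 27.3 and 24.7 CPM with POVPC, against 31.8, 41.3 and 36.4 CPM with vehicle (-0.50 ± 0.10). That call was lost without KO vehicle hypoxia 2 (-0.40, FDR 0.0712).

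As a difference between the lines (KO minus WT), the response to POVPC in normoxia was called for 0 genes upward and 2 downward, beside 8.17 and 8% of all genes. They were Mthfd1l (-1.09 ± 0.11), which rose with POVPC in WT cells and was at -0.12 ± 0.075 in KO cells, and Aldh1l2 (-0.55 ± 0.16), a call lost without KO POVPC normoxia 3 (-0.44, FDR 0.0638). Psat1 was at -0.31 without a call. It gained a call with DESeq2 (-0.32, FDR 0.0283) and without KO vehicle normoxia 3 (-0.41, FDR 0.00443), among other settings. Over 21 alternatives its FDR ran from 0.00443 to 0.589. In hypoxia 1 was called higher and 2 lower, beside 5.89 and 3.48% of all genes. Aldh1l2 (-0.74 ± 0.15) and Mthfd2l (-0.73 ± 0.20) were lower and Mthfd2 (0.38 ± 0.12, FDR 0.0446) was higher. The Mthfd2l call was lost without WT POVPC hypoxia 2 (-0.58, FDR 0.0715) or WT vehicle hypoxia 1 (-0.67, FDR 0.0548), and that on Mthfd2 without any 1 of KO POVPC hypoxia 1, KO POVPC hypoxia 3, KO vehicle hypoxia 1, KO vehicle hypoxia 3, WT POVPC hypoxia 1, WT POVPC hypoxia 2, WT vehicle hypoxia 1 or WT vehicle hypoxia 2 (0.29 to 0.37, FDR 0.0789 to 0.161). Without the 3 shallowest libraries only the call on Aldh1l2 held among these 3.

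Genes around the pathway were followed as lists chosen with earlier results known, to be read beside the shares of all genes given above. In hypoxia the amino acid response genes linked to ATF4 rose in 16 of 23 cases and fell in 6 in KO cells with POVPC, and rose in 20 and fell in 1 in WT cells with POVPC. With vehicle they rose in 14 and fell in 6 in KO cells, and rose in 19 and fell in 2 in WT cells. The median change of the list was 1.20 in KO and 1.55 in WT cells with POVPC, and 0.97 in KO and 1.48 in WT cells with vehicle. Atf4 itself rose by 1.65 ± 0.071 and 2.16 ± 0.072 in KO and WT cells with POVPC and by 1.43 ± 0.070 and 1.90 ± 0.071 in KO and WT cells with vehicle. Asns, the asparagine synthetase, rose by 2.15 ± 0.093 in KO and 3.46 ± 0.098 in WT cells with vehicle. All 12 aminoacyl-tRNA synthetase genes rose in WT cells with either treatment, whereas 9 of 12 rose in KO cells with POVPC and 10 with vehicle, and none fell. Their median change with vehicle was 0.51 in KO and 1.10 in WT cells. Genes of purine synthesis, which uses the formyl groups of this pathway, rose in 8 of 12 and fell in 4 in KO cells and rose in 6 and fell in 3 in WT cells with POVPC. With vehicle 7 rose and 4 fell in KO cells, and 10 rose and 2 fell in WT cells, with medians of 0.22 in KO and 0.45 in WT cells. Atic, which uses a formyl folate directly, rose by 0.74 ± 0.072 in KO and 1.37 ± 0.073 in WT cells with vehicle. Of 13 other genes of serine and glycine transport and use, 7 rose and 3 fell in KO and 8 rose and 3 fell in WT cells with POVPC, and 6 rose and 3 fell in KO and 9 rose and 3 fell in WT cells with vehicle. The transporter gene Slc1a4 rose by 0.93 ± 0.076 in KO and 2.32 ± 0.078 in WT cells with vehicle.

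Other folate and methionine cycle genes went in both directions. Of 22 tested, 11 rose and 4 fell in KO and 7 rose and 6 fell in WT cells in hypoxia with POVPC, and 10 rose and 5 fell in KO and 10 rose and 4 fell in WT cells with vehicle. The median change was 0.34 in KO and 0.10 in WT cells with POVPC, and 0.27 in KO and 0.16 in WT cells with vehicle. Sardh, the mitochondrial sarcosine dehydrogenase, fell in all 4 settings, with -2.95 ± 0.13 in KO and -3.24 ± 0.12 in WT cells given vehicle. Between the lines, 5 of the 22 were higher and 10 lower in KO in hypoxia with POVPC, and 4 and 12 with vehicle. In normoxia 3 were higher and 14 lower in KO with POVPC, and 4 and 12 with vehicle. Cbs, which draws homocysteine off to cysteine, and Gldc, the glycine decarboxylase, were lower in KO in all 4 conditions. With vehicle in normoxia they were at -5.10 ± 0.23 and -2.50 ± 0.13. Of 12 proliferation genes 4 rose and 7 fell in KO cells in hypoxia with either treatment, 1 rose and 10 fell in WT cells with POVPC, and 5 rose and 4 fell in WT cells with vehicle. Of the 10 enzymes 8 or 9 rose in each of these settings, beside 31.8 to 34.5% of all genes. The part of proliferation in the changes of the 10 was not tested. Myc, a growth regulator, rose by 1.53 ± 0.13 in KO and 3.11 ± 0.14 in WT cells with vehicle.

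As KO minus WT, the hypoxia response with vehicle was called lower for 16 and higher for 4 of the 23 amino acid response genes, lower for 11 of 12 tRNA synthetase genes and lower for 8 of 12 purine genes. It was also lower for 11 and higher for 1 of the 12 proliferation genes, with a median of -2.18, beside medians of -0.92, -0.53 and -0.30 for the 3 lists just named, in that order. Of 7 smooth muscle markers tested it was higher for 5 and lower for 1. The part of these in the response of the 10 enzymes was not tested. Atf4 was at -0.47 ± 0.098, the cystine transporter gene Slc7a11 at -3.48 ± 0.14 and Slc1a4 at -1.39 ± 0.11. With POVPC it was lower for 14 and higher for 4 of the amino acid response genes and lower for 9 synthetases, but lower for 0 and higher for 1 of the purine genes, and lower for 1 and higher for 4 of the proliferation genes, with Atf4 at -0.51 ± 0.098.

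Over the 24 culture libraries, each of the 10 genes was set beside 10372 genes of at least 5 CPM by the root mean square difference between their centred log2 profiles. Among the 3 nearest to Mthfd1l were Aldoa (0.20) and Gapdh (0.23), which encode glycolytic enzymes, where the median gene was at 1.78. Nearest to Mthfd2 were Me2 (0.28), Atf4 (0.28) and Hilpda (0.28), with the median gene at 1.08. Atf4 was also nearest to Aldh1l2 (0.29), followed by Mthfd2 (0.30) and Clcn3 (0.32). For Psat1 they were Adipor2 (0.20), Ptpla (0.22) and the glycyl-tRNA synthetase gene Gars (0.23), and for Shmt2 Lrrc59 (0.15), Txnrd1 (0.18) and Mmab (0.18). For Phgdh they were Tmem42 (0.26), Hes6 (0.26) and Endog (0.26), and for Psph Mrps7 (0.14), Spsb3 (0.16) and Hspa8 (0.16). For Shmt1 they were Traf4 (0.20), Snx8 (0.21) and 4933424B01Rik (0.21), for Mthfd1 Ube2q1 (0.097), Zfp207 (0.099) and Dgkz (0.10), and for Mthfd2l Whsc1 (0.18), Rab28 (0.18) and Txndc15 (0.19). Among the 10 themselves the closest pairs were Psph with Shmt2 (0.28), Mthfd2 with Aldh1l2 (0.30) and Psat1 with Aldh1l2 (0.33). The libraries share lines and treatments, so these distances describe this set.

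In lesions none of the 10 genes was called between KO and WT animals, and neither was any other gene by edgeR: 0 of 10 higher and 0 lower, beside 0 and 0% of 14993. At an unadjusted p under 0.05 there were 0 of the 10 and 2216 genes in all, and DESeq2 called 0 of the 10 and 447 genes. Mthfd1 was the highest of the 10 per kilobase, at 12.1 ± 0.11 CPM per kilobase in KO and 11.9 ± 0.43 in WT animals (SD, n = 4 each). Mthfd1l had 24.6, 15.9, 17.8 and 17.4 CPM in KO animals, against 20.9, 21.9, 21.7 and 25.9 CPM in WT animals. The groups overlapped through KO animal 1, and the difference was -0.26 ± 0.15 (FDR 0.43). Phgdh had 12, 9.98, 7.92 and 4.73 CPM in KO and 8.90, 10.6, 10.9 and 10.8 CPM in WT animals (-0.26 ± 0.25, FDR 0.647), with KO animal 4 the lowest. Shmt2 was at 0.078 ± 0.11 and Mthfd2 at 0.017 ± 0.11, and the 10 differences ran from -0.26 to 0.17.

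**Figure D5:**
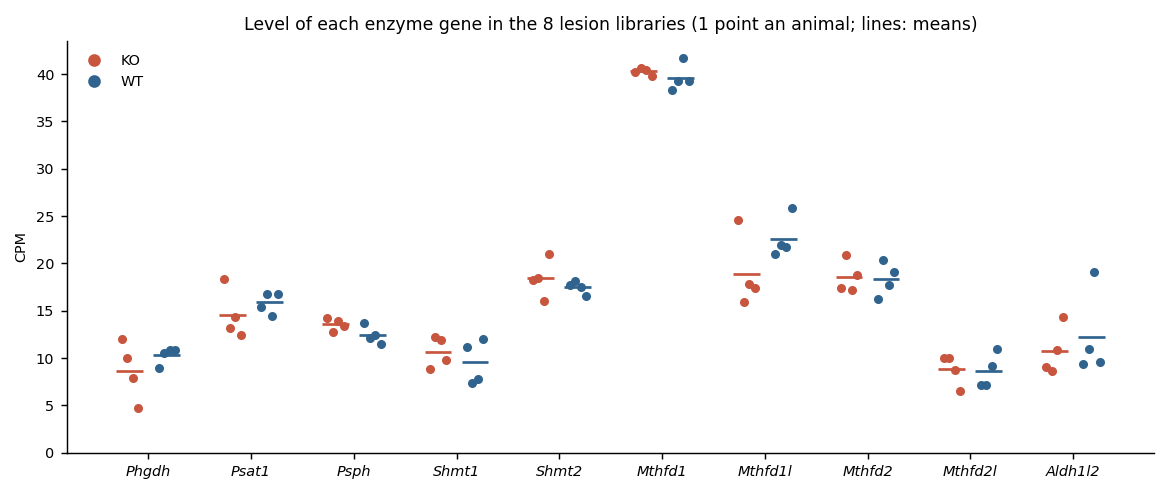
Level of each gene in CPM in the 8 lesion libraries (points: animals, 4 a group; lines: means; red: KO; blue: WT; linear axis from 0). The groups overlap for every gene, and Mthfd1 lies between 38.4 and 41.7 CPM in all 8.

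Lesion libraries hold many cell types, and fewer cells of a type cannot be told from less RNA per cell in them. Summed macrophage markers were at 3509 to 8470 CPM in KO and 2072 to 3156 CPM in WT animals, smooth muscle markers at 4185 to 6232 and 6050 to 9057 CPM, and endothelial markers at 1547 to 1820 and 1171 to 1428 CPM, in that order of groups, and no marker was at 0 throughout a group. Their part in the levels of the 10 genes was not tested. Within lesion libraries Mthfd1l over Mthfd1 was 0.361 ± 0.074 in KO and 0.439 ± 0.047 in WT animals per kilobase. Mthfd2 over Mthfd2l was 2.35 ± 0.541 in KO and 2.37 ± 0.515 in WT animals, and Shmt2 over Shmt1 was 1.58 ± 0.359 and 1.72 ± 0.461 (mean ± SD, n = 4 each). The tables were counted and scaled apart, so lesion and culture levels were not compared by test.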

How the data were processed

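The authors deposited 2 tables of raw read counts per gene, 1 for lesions and 1 for cultures, made with featureCounts 1.4.4 on mm9 genes without strand, per the file headers. Lesion counts are read pairs with both mates aligned and culture counts are single mates, per the file headers. STAR is named without a version in the submitters' processing notes. Here genes were filtered with edgeR's filterByExpr (minimum count 10, minimum total 15), scaled by TMM and fitted with edgeR 4.0.16 (quasi-likelihood, robust) in R 4.3.3. All 8 culture groups were fitted together and lesions apart, with Benjamini-Hochberg adjustment over all genes tested. The scripts were tested on simulated data. Alternatives were DESeq2 1.42.0, other scalings and filters, a replicate block, fits of single comparisons, and omission of each library in turn. Depth was 6526099 to 30231799 counts a library, and any precision drawn from counts covers counting error only. Named are all 10 genes, up to 3 called genes with the smallest p from each context list and comparison, Atf4 and Myc, and the 3 genes nearest in profile to each of the 10 (log2 CPM with a prior of 0.5). The 10 genes and all lists were chosen with earlier results of these data known. Some results that fall under these rules are not reported here.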

Additional observations from a re-analysis of the deposited data

Results flagged for a closer look

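Among WT lesions, 1 animal stood apart from the other 3 for Phgdh (8.90 CPM, the lowest) and 1 for Aldh1l2 (19.1 CPM, the highest), by Dixon's criterion for 4 samples. Chance marks about 1 in 20 groups in this way.

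The lines responded differently, by edgeR's interaction test, in the comparisons below, each value being the KO response minus the WT response on the log2 scale. For hypoxia with POVPC these were Phgdh (-0.56), Psat1 (-1.05), Shmt2 (-0.36), Mthfd1 (0.52), Mthfd1l (0.71), Mthfd2 (-1.09) and Aldh1l2 (-1.13). For hypoxia with vehicle they were Phgdh (-0.69), Psat1 (-1.55), Psph (-0.42), Shmt1 (0.83), Shmt2 (-0.93), Mthfd1l (-0.67), Mthfd2 (-1.25), Mthfd2l (0.62) and Aldh1l2 (-0.94). For POVPC in hypoxia they were Mthfd2 (0.38), Mthfd2l (-0.73) and Aldh1l2 (-0.74), and in normoxia Mthfd1l (-1.09) and Aldh1l2 (-0.55). The 4 interaction comparisons share libraries and are not independent of one another.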

How the results depend on the processing

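Of 170 results on single genes (10 genes in 17 comparisons), none changed direction past a threshold under any alternative. Under settings other than a left-out library 1544 values kept their side of the threshold, 24 gained a call and 42 lost one, and with 1 library left out these were 1221, 14 and 45.

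Counts of the 10 genes called moved by over 1.5 times in the comparisons below. POVPC in WT hypoxia (7) gave 0 without the 3 shallowest libraries, with 1073 genes in place of 3037, and 3 with its groups fitted alone. POVPC in KO normoxia (2) gave 0 with its groups alone and 1 with scaling by library size alone or without robust estimation. POVPC in KO hypoxia (1) gave 2 with its groups alone or DESeq2 and 0 with library size alone. The difference in POVPC response gave 4 with DESeq2 in normoxia (2) and 1 without the 3 shallowest libraries in hypoxia (3). With 1 library left out these 4 counts ranged over 1 to 5, 0 to 1, 1 to 3 and 1 to 5, in the order KO normoxia, KO hypoxia, normoxia difference and hypoxia difference. The cause was not tested.

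Same-numbered libraries did not deviate together in either table (r of -0.64 to 0.11 in lesions and -0.24 to 0.33 in culture), so numbers were not taken as pairs. A replicate block gave 1 in place of 2 for POVPC in KO normoxia, 2 in place of 3 for the POVPC response in hypoxia and 8 in place of 9 for KO against WT in hypoxia with POVPC, and 0 in lesions.

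Over all genes, DESeq2 called 447 in lesions, 23 for POVPC in KO normoxia and 991 in KO hypoxia. Without a filter lesions gave 11, and without KO 4 and WT 1 they gave 1. Scaling by library size alone moved the median change of all genes to -0.21 from -0.03 for hypoxia in WT cells with vehicle, to -0.16 for KO against WT with vehicle in normoxia, to -0.13 for POVPC in WT normoxia and to 0.20 for the POVPC response in normoxia. The share of calls upward was then 36.4, 37, 31.4 and 73.3%, against 48.1, 49.1, 48.7 and 50.5% with TMM. For the hypoxia response with vehicle it was 60.1 against 49.2%, for the POVPC response in hypoxia 80.6 against 62.9%, and for POVPC in KO hypoxia 78.3 against 48.5%.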
